A study of Rattus norvegicus with 36 samples.

Results

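The genes described are 9 members of the growth hormone and STAT5 axis of the liver: Cish, Bcl6, Onecut1, Socs2, Igf1, Igfals, Ghr, Cyp2c11 and Hsd17b2. They are 9 of the 14217 genes to which the array annotation gives a probe set with a single symbol. Each gene is represented by the probe set with the highest mean over all arrays, out of 14 probe sets that carry a member's symbol. The members were chosen by name, with the log2 values of Cish, Bcl6 and Onecut1 in these arrays already seen to swing between arrays of the same group, so those swings are a description and carry no test.

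Growth hormone from the pituitary binds its receptor on hepatocytes and activates the kinase JAK2, which phosphorylates the transcription factor STAT5. Male rats release growth hormone in separated pulses, and liver STAT5 is activated with each pulse and falls silent between them. Cish and Socs2 encode feedback inhibitors induced by STAT5, Bcl6 encodes a repressor that can occupy STAT5 binding sites, and Onecut1 encodes the liver factor HNF6, which takes part in growth hormone dependent transcription.

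Liver RNA came from male Sprague Dawley rats that were 7 weeks old at the start of the study. TBPH, bis(2-ethylhexyl) tetrabromophthalate, a brominated flame retardant, was given by gavage in corn oil at 5 ml/kg for 5 days, and tissue from the left lobe was collected 1 day after dosing ended. The 36 arrays form 6 groups of 6: corn oil vehicle, and TBPH at 706, 70.6, 7.06, 0.71 and 0.07 mg/kg. The labels number the replicates without saying that each is a separate animal, and the hour of tissue collection is not used here. Values are log2 RMA values, on which a difference of 1 is a doubling, and probe levels are not compared between genes. In bulk liver, fewer cells of a type and less RNA per cell cannot be told apart. The mean of 8 hepatocyte markers ran from 13.08 to 13.31 over the 36 arrays. This mean lies near the top of the array's scale, whose highest value is 14.77, where differences can be compressed.

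The Cish promoter is shown because Cish is a textbook STAT5 target, and the Bcl6 promoter for contrast, since Bcl6 tended to vary the other way. Both are from RefSeq on GRCr8, with 250 bases before and 50 after the start of the gene, and capitals mark the letters TTCNNNGAA, the consensus bound by STAT factors, which is its own reverse complement and so covers both strands. Cish lies on the plus strand at chr8:116850719-116851018 and Bcl6 on the plus strand at chr11:90358503-90358802.
Cish: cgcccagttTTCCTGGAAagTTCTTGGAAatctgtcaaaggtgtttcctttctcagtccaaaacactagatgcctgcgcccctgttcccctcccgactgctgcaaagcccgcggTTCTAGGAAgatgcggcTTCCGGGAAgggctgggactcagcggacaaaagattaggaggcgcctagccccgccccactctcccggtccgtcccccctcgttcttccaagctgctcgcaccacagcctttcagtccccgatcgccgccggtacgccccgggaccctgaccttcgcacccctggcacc
Bcl6: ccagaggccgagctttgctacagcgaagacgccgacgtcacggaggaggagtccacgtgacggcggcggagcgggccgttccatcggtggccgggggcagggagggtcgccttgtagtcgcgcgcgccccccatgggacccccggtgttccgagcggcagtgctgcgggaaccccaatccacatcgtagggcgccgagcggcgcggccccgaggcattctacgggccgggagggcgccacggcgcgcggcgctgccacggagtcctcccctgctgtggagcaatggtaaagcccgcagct
The Cish window holds 4 matches, TTCCTGGAA, TTCTTGGAA, TTCTAGGAA and TTCCGGGAA, starting at -241, -230, -136 and -119 from the start of the gene. Of 33469 promoter windows of 300 bases, 8.87% hold 1 or more matches and 2 windows hold 4 or more. The windows of Bcl6, Igf1, Igfals, Ghr and Cyp2c11 hold none. Onecut1, Socs2 and Hsd17b2 were not matched to the promoter table. A match is a description of the letters in this window and not a bound site.

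Cish differed 8.14-fold between the lowest array, at 5.26, and the highest, at 8.28. In vehicle liver it ran from 5.27 to 7.89 with a median of 6.38. The TBPH groups ran from 5.66 to 8.15 (median 7.78) at 0.07 mg/kg, from 5.92 to 8.15 (7.40) at 0.71 mg/kg, from 5.26 to 8.09 (7.48) at 7.06 mg/kg, from 7.89 to 8.28 (8.15) at 70.6 mg/kg and from 5.78 to 8.25 (7.46) at 706 mg/kg. The values fell into a low and a high set, with no array between 5.92 and 6.73. This gap of 0.81 compares with 0.37 for the next widest gap between neighbouring Cish values. The low set, at 5.26 to 5.92, lay close to the array medians of 5.06 to 5.15. Differences within that set are thus between dim values. Of the 36 arrays, 9 lay below the gap: 3 of 6 in vehicle, 2 at 0.07 mg/kg, 1 at 0.71 mg/kg, 1 at 7.06 mg/kg, 0 at 70.6 mg/kg and 2 at 706 mg/kg. A second Cish probe set followed the first with r = 0.98 over the 36 within-group deviations.

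Bcl6, a zinc finger repressor, had a wider range, 23.3-fold from 5.38 to 9.92. Vehicle arrays ran from 6.60 to 9.58 with a median of 7.95, and arrays at 706 mg/kg from 5.77 to 7.09 with a median of 6.59. In the groups between, single arrays stood far from the rest: 1 array of the 7.06 mg/kg group reached 9.92 while the next highest was at 7.00, and 1 array of the 70.6 mg/kg group reached 9.31 while the next was at 6.97. Bcl6 medians at 0.07, 0.71, 7.06 and 70.6 mg/kg were 7.85, 7.15, 6.61 and 6.81, with ranges that overlapped vehicle in every group.

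Onecut1, a liver homeobox factor, ranged 18.7-fold from 6.32 to 10.55. Its vehicle arrays ran from 6.41 to 10.18 with a median of 7.67, so the vehicle group alone covered most of the range seen in the study. Medians in the TBPH groups were 7.81, 8.49, 9.46, 9.22 and 9.06 from the lowest to the highest dose, and the lowest arrays of these groups lay between 6.32 and 7.21. The second Onecut1 probe set followed the first with r = 0.98.

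Socs2, the feedback inhibitor of growth hormone receptor signalling, ranged 9.20-fold from 6.55 to 9.75. Vehicle arrays ran from 6.55 to 9.28 with a median of 8.01, and arrays at 706 mg/kg from 7.39 to 9.10 with a median of 8.84. All 6 groups overlapped.

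Spread within groups set these 4 genes apart from the other 5 members. The SD within groups was 1.31 for Onecut1, 1.18 for Bcl6, 0.95 for Cish and 0.90 for Socs2, against a median of 0.15 over all 31042 probe sets. By this SD the 4 genes ranked 9, 13, 28 and 35 of 31042, in the same order. Hsd17b2 (0.31) and Igfals (0.27) ranked 1212 and 1875. The probe sets used for Ghr (0.12), Igf1 (0.08) and Cyp2c11 (0.08) varied less than the median probe set. Other, less bright probe sets had an SD of 0.18 and 0.10 for Igf1 and 0.23 for Ghr. Igf1 and Cyp2c11 lie near the top of the array's scale, whose highest value is 14.77, and a bright probe set can compress differences.

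**Figure D1:**
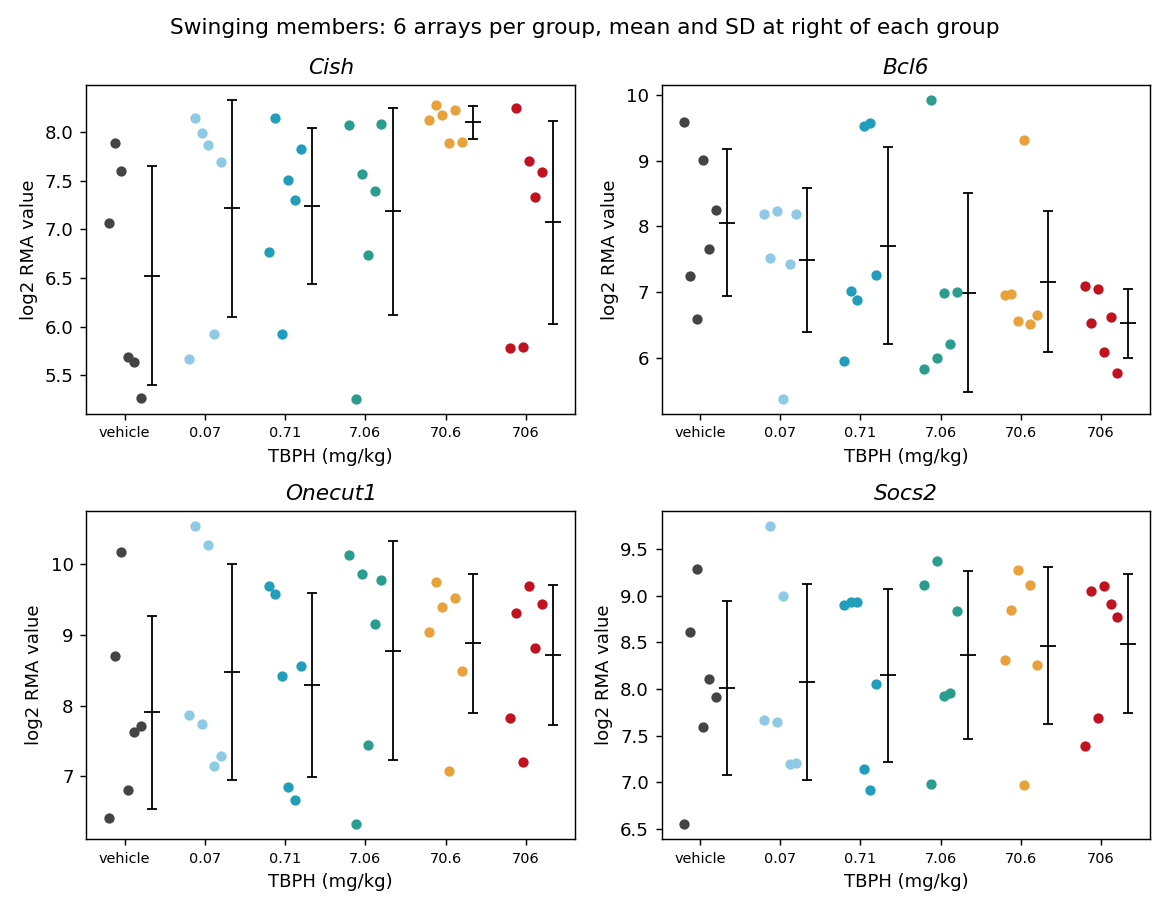
Log2 RMA values of Cish, Bcl6, Onecut1 and Socs2 (vertical axes) in each group by TBPH dose (horizontal axis). Points are single arrays, 6 per group, and the bars beside them are the mean and SD; the Cish panel shows 9 arrays at or below 5.92 and none of them at 70.6 mg/kg.

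On single arrays the 4 genes made opposite pictures. Vehicle replicate 1 had Bcl6 at 9.58 with Onecut1 at 6.41 and Socs2 at 6.55, while vehicle replicate 3 had Bcl6 at 6.60 with Onecut1 at 10.18 and Socs2 at 9.28. These arrays are of the same group and had Cish at 7.06 and 7.60. The 7.06 mg/kg group held the same pair of patterns: replicate 2 had Cish at 5.26, Bcl6 at 9.92 and Onecut1 at 6.32, and replicate 1 had Cish at 8.07, Bcl6 at 5.84 and Onecut1 at 10.13.

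Bcl6 and Onecut1 moved in opposite directions. Their within-group deviations had r = -0.84 and a Spearman correlation of -0.80 over 36 arrays, with r between -0.95 and -0.65 in each of the 6 groups. Leaving out any 1 array gave -0.89 to -0.81. These are descriptions over arrays that share 6 group means, with no p, since the pair was chosen for its swings.

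Cish moved with Onecut1 less evenly. The correlation within groups was 0.96 at 7.06 mg/kg, 0.90 at 70.6 mg/kg and 0.93 at 706 mg/kg, but 0.54 in vehicle, 0.54 at 0.07 mg/kg and 0.00 at 0.71 mg/kg, each over 6 arrays, and the difference between these groups was not tested. Over the 27 arrays above the Cish gap r was 0.47. Over the 9 arrays below the gap r was 0.42 with group means kept, so it cannot be compared with the within-group values. All 36 arrays together gave 0.60, which spans the gap.

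Of the 3 pairs among Cish, Bcl6 and Onecut1, Cish and Bcl6 had the weakest correlation. The correlation was negative in 5 of 6 groups, from -0.89 at 7.06 mg/kg to 0.27 at 0.71 mg/kg. Over the 27 arrays above the Cish gap it was -0.17 and over all 36 arrays -0.36, both from within-group deviations. Over the 9 arrays below the gap it was -0.76 with group means kept, which cannot be compared with the within-group values. Without replicate 2 of the 7.06 mg/kg group, which had the lowest Cish and the highest Bcl6 of the study, the value over the remaining arrays was -0.20.

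Counting arrays shows the shape of the relation between Cish and Onecut1. Onecut1 also had a gap, between 7.87 and 8.42, with 15 arrays below and 21 above. Of the 21 arrays with Onecut1 above its gap, 20 also had Cish above its own gap. The exception, replicate 3 at 0.71 mg/kg, had Onecut1 at 8.42 and Cish at 5.92. The 15 arrays with Onecut1 below its gap were split, 8 with low Cish and 7 with Cish from 6.73 to 8.00. High Onecut1 was seen with high Cish on all but 1 array, and high Cish was seen with either state of Onecut1. The 20 arrays high in both had Bcl6 at 5.38 to 7.52 and Socs2 at 7.96 to 9.75, and the 8 arrays low in both had Bcl6 at 7.05 to 9.92 and Socs2 at 6.99 to 8.11. These counts describe single arrays and compare no groups of the study.

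**Figure D2:**
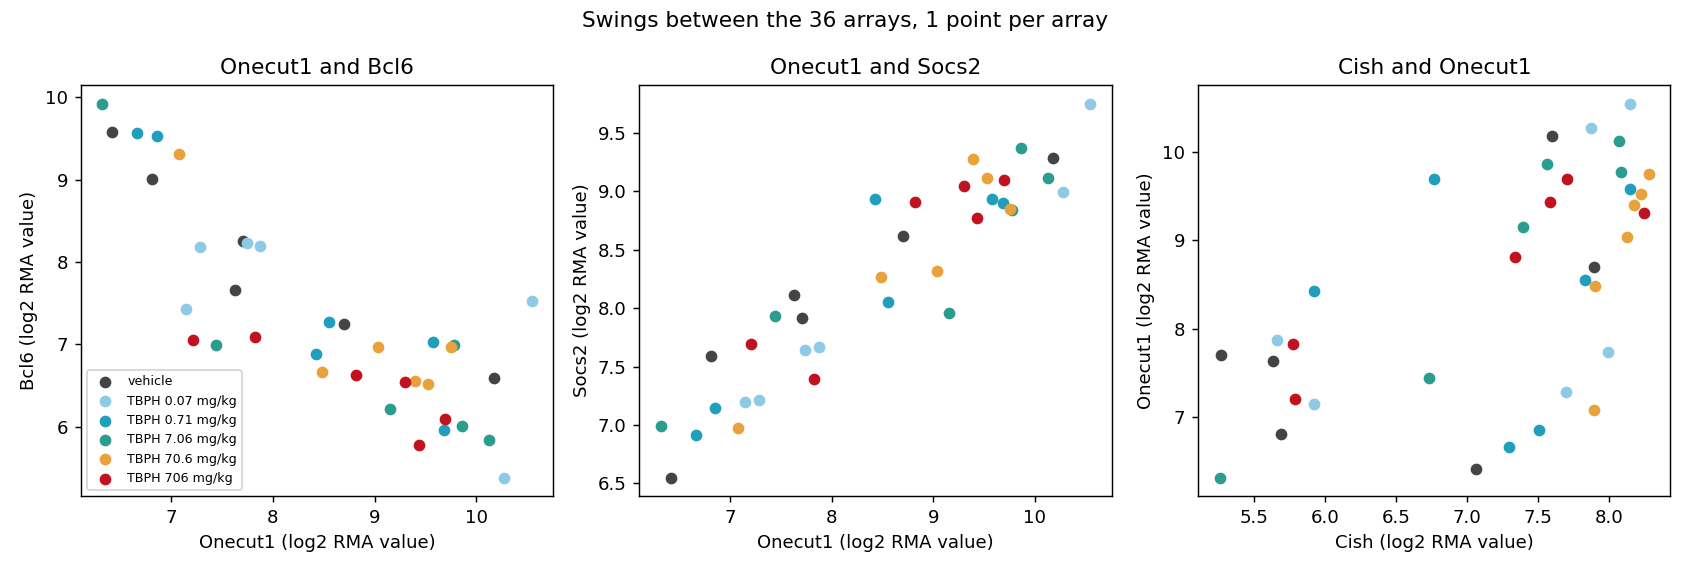
Bcl6 against Onecut1, Socs2 against Onecut1, and Onecut1 against Cish, as log2 RMA values with 1 point per array coloured by group. Onecut1 runs against Bcl6 (r = -0.84 within groups) and with Socs2 (0.94). The 27 arrays above the Cish gap had Onecut1 from 6.41 to 10.55, and 20 of them had Onecut1 above its own gap.

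Socs2 had a higher correlation with Onecut1 than with Cish (Pearson 0.48, Spearman 0.49). Within-group deviations of Socs2 and Onecut1 had r = 0.94 and a Spearman correlation of 0.92 over 36 arrays, and r between 0.91 and 0.98 in the 6 groups. Among 9583 genes above the median brightness, Socs2 had the highest r with Onecut1. In limma fits with the group means and 1 member as a covariate, adjusted by Benjamini-Hochberg over all probe sets, Socs2 rose by 0.65 ± 0.04 (SE) per unit of Onecut1 (adjusted p = 4.02e-13), and 2.73% of all probe sets were called in that fit, 2.28% with a positive and 0.445% with a negative slope. Per unit of Bcl6, Socs2 fell by 0.61 ± 0.08 (SE; adjusted p = 1.29e-05), where 1.27% of all probe sets were called, 0.229% positive and 1.04% negative. Per unit of Cish the Socs2 slope was 0.46 ± 0.14 (SE) and did not pass (adjusted p = 0.164), where 0.773% were called, 0.602% positive and 0.171% negative. Whether the Onecut1 and Cish slopes differ was not tested, and the Cish values span the gap described above. Members were chosen with earlier results of these data known, so the Socs2 p-values describe the fits and are no independent test. Onecut1 and Bcl6 vary against each other, so the Socs2 slopes on them are not separate support.

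Igf1, Igfals, Ghr, Cyp2c11 and Hsd17b2 showed no called association with Cish, Bcl6 or Onecut1 in these limma fits, with adjusted p from 0.73 to 1.00. Igf1 encodes the circulating growth factor made under growth hormone, and its slope per unit of Onecut1 was 0.0044 ± 0.013 (SE). Igf1 and Igfals, the acid labile subunit that holds IGF1 in the circulation, varied with each other instead: r was 0.77 over 36 within-group deviations and 0.51 to 0.95 in the 6 groups. Leaving out the 2 arrays farthest from the median gave 0.71. The other Igf1 probe sets followed the one used with r = 0.66 and 0.85. Ghr, the growth hormone receptor, had r = 0.10 between its probe sets, so its values rest on 1 probe set alone. Cyp2c11, the male-specific cytochrome P450 under growth hormone control, has close relatives in the Cyp2c family that could add signal to its probe set, and its r with Hsd17b2 was -0.44.

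Beyond the members, the genes most like Cish over the 36 within-group deviations were Rgs3 (r = 0.94), a regulator of G protein signalling, Foxa2 (0.93), a liver forkhead factor, Hhex (0.91), a homeobox factor, Dusp6 (0.90), an ERK phosphatase, and Net1 (0.90). Among the 27 arrays above the Cish gap these values were 0.66, 0.68, 0.70, 0.59 and 0.55. In the 70.6 mg/kg group, where Cish varied little (SD 0.17), they were 0.73, -0.49, 0.02, -0.61 and -0.76. Genes that ran most against Cish were Bambi (-0.80), Id4 (-0.79), Zfp354a (-0.76), Hnf4a (-0.75) and Tbx3 (-0.75), with -0.42, -0.60, -0.53, -0.48 and -0.52 above the gap. Foxa2 itself spanned 3.51-fold and Hnf4a, the nuclear receptor that defines hepatocytes, 1.69-fold.

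Onecut1 had a different set of nearest genes. After Socs2 these were Slc25a30 (0.93), a mitochondrial carrier, B3gnt2 (0.92), Tmx4 (0.91) and Rbpj (0.91), the Notch effector. Running against Onecut1 were Rin2 (-0.94), Tsc22d1 (-0.87), Zfp395 (-0.87), Jade1 (-0.85) and Bcl6 (-0.84). Slc25a30 spanned 9.22-fold over the 36 arrays, about as wide as Socs2. Bcl6 mirrored this list, with Rin2 (0.84), Zfp395 (0.77), Eva1a (0.77), Tsc22d1 (0.74) and Jade1 (0.71) highest, and Onecut1, Rbpj (-0.81), Socs2 (-0.80), Slc25a30 (-0.79) and Cebpb (-0.79) lowest. Of 239 probe sets called with Cish and 845 called with Onecut1, leaving both genes out of the counts, 129 were in both, which is 54.0% of the first and 15.3% of the second, and all 129 had the same sign. Cish and Onecut1 were measured on the same arrays and vary together, so the lists are not independent.

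**Figure D3:**
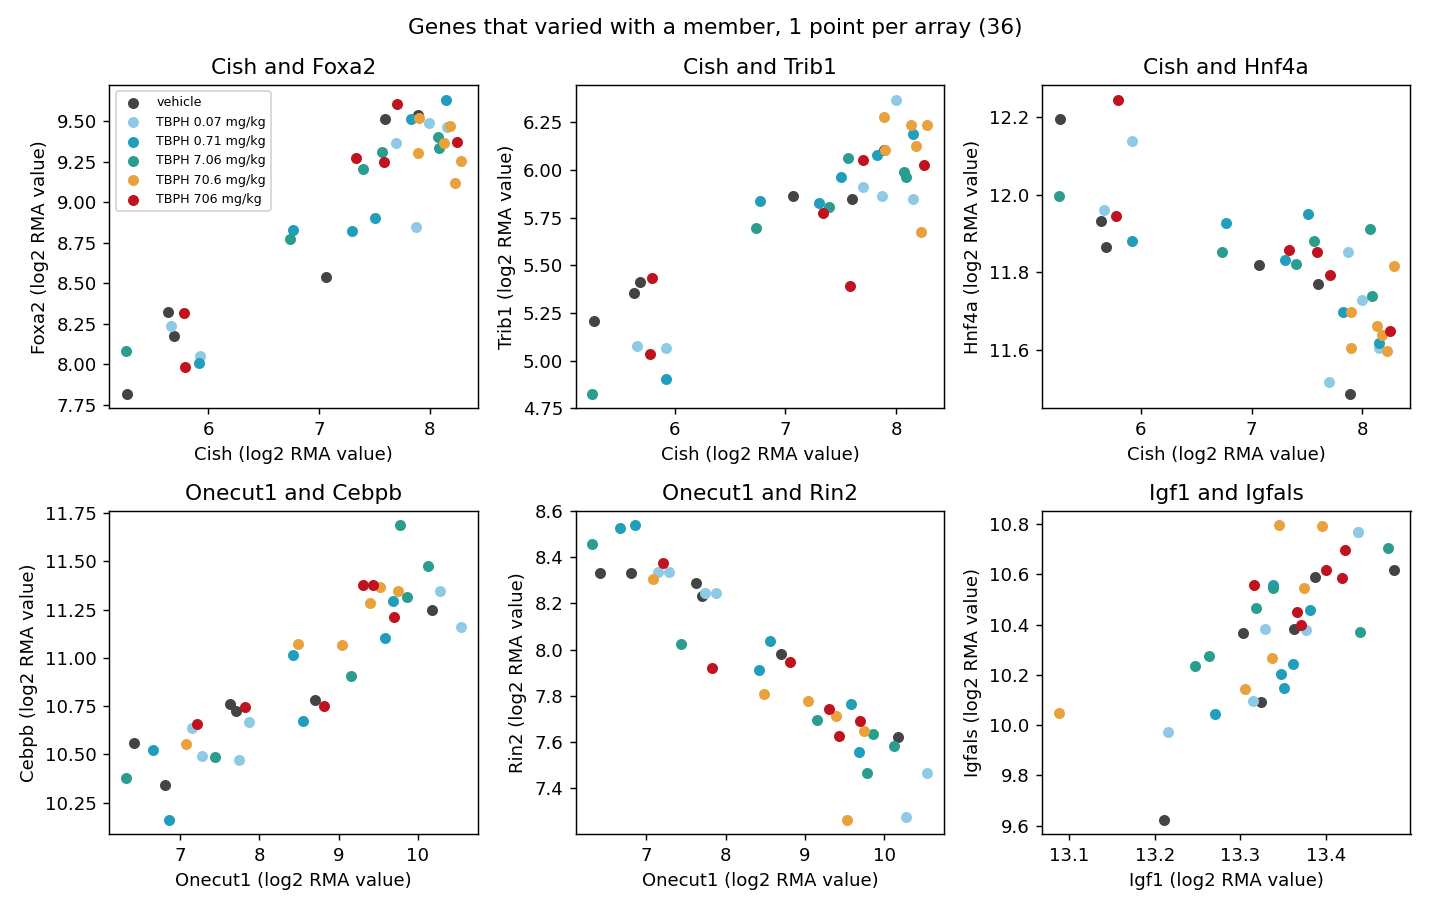
Log2 RMA values of Foxa2, Trib1 and Hnf4a against Cish, of Cebpb and Rin2 against Onecut1, and of Igfals against Igf1, with 1 point per array coloured by group. Foxa2 and Trib1 rise across the Cish gap, Hnf4a falls, and Rin2 falls steadily with Onecut1 (r = -0.94).

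The receptor kinase and the STAT5 genes were not called with Cish, Bcl6 or Onecut1. Of 16 measured genes of growth hormone receptor signalling, out of 17 listed, 1 was called with Cish, 0 with Bcl6 and 0 with Onecut1. The shares called over all probe sets were 0.773%, 1.27% and 2.73%. Jak2, Stat5a and Stat5b had r = 0.08, 0.01 and 0.09 with Cish, and none was called. The called gene was Socs3, a cytokine inhibitor of the same family, at 0.19 ± 0.05 (SE) per unit of Cish (adjusted p = 0.0322 in limma). Socs3 was dim, from 4.02 to 5.84 with a median of 4.86, while array medians were 5.06 to 5.15. Its call was lost in 11 alternatives: the replicate block (adjusted p = 0.0580), ranks of Cish, the fit on the 27 arrays above the gap, the fit without the 2 farthest arrays, and fits without vehicle replicate 2 or 6, 0.07 mg/kg replicate 1, 0.71 mg/kg replicate 3, 7.06 mg/kg replicate 2 or 6, or 706 mg/kg replicate 2. None of 11 IGF axis genes was called with any of these 3 members, including Igfbp1 (r = 0.06 with Cish) and Igfbp3 (-0.09). None of 9 measured male-biased and 11 measured female-biased liver genes was called either. Beside the shares over all probe sets, a lack of calls in lists this small says little about these genes. The nearest to Cish among them were Sult1e1 (-0.43) and Obp3 (-0.30) on the male side and A1bg (-0.29) and Cux2 (-0.17) on the female side.

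Of 12 measured liver transcription factors, 2 were called with Cish, 4 with Bcl6 and 5 with Onecut1, beside 0.773%, 1.27% and 2.73% of all probe sets. Foxa2 rose with Cish by 0.56 ± 0.04 per unit (SE) and Hnf4a fell by 0.14 ± 0.02. With Onecut1, Onecut2, Foxa2, Cebpa and Cebpb rose and Prox1 fell, and Cebpb (r = 0.91), a C/EBP factor of the acute phase response, rose by 0.27 ± 0.02 per unit. With Bcl6, Onecut2, Cebpa and Cebpb fell and Nr5a2 rose, but Cebpa and Nr5a2 did not pass without 0.07 mg/kg replicate 4, nor Nr5a2 without 70.6 mg/kg replicate 4. The list's median r was 0.04 with Cish, -0.31 with Bcl6 and 0.46 with Onecut1, beside -0.01, 0.02 and -0.03 over all probe sets. All of these calls are limma tests adjusted over all probe sets at 0.05. The list was chosen with earlier results of these data known, and whether it held more calls than those shares was not tested.

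Of 20 measured early response genes, 7 were called with Cish, 3 with Bcl6 and 4 with Onecut1, beside 0.773%, 1.27% and 2.73% of all probe sets, and the difference between these counts was not tested. Jun, Junb, Ier2, Ier3, Myc, Dusp1 and Gadd45g rose with Cish. Gadd45g, a stress and cytokine response gene, rose by 0.98 ± 0.10 (SE) per unit of Cish, and its values ran from 6.15 to 9.74 over the 36 arrays. Ier2 rose by 0.46 ± 0.06. Jun, Jund and Atf3 fell with Bcl6, and Jun, Jund, Atf3 and Dusp1 rose with Onecut1. All 3 calls with Bcl6, and that of Jund with Onecut1, were lost without 0.07 mg/kg replicate 4, among other single arrays for Jun and Jund. The list's median r with Cish was 0.40, beside -0.01 over all probe sets. This list was chosen with earlier results of these data known. Whether it held more calls than the shares over all probe sets was not tested.

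Among 15 measured fasting and insulin genes, Trib1 (0.38 ± 0.04 SE per unit) and Pdk4 (0.38 ± 0.05), a kinase that restrains glucose oxidation, rose with Cish. Trib3 fell with Bcl6, and Pdk4, Fgf21 and Trib3 rose with Onecut1. Of 17 measured clock genes, Nfil3 and Bhlhe40 rose with Cish, Bhlhe40 fell with Bcl6, and with Onecut1 Bhlhe40 rose and Cry2 fell. Of 9 measured glucocorticoid response genes, Dusp1 rose with Cish, and Sgk1, Dusp1 and Nr3c1 rose with Onecut1. Of 12 measured acute phase genes of the STAT3 pathway, Socs3 rose with Cish and Il6r rose with Bcl6. Over all probe sets 0.773% were called with Cish, 1.27% with Bcl6 and 2.73% with Onecut1. Whether any of these lists held more calls than those shares was not tested. Calls lost when single arrays were left out were Fgf21 with Onecut1 (0.07 mg/kg replicate 4), Cry2 and Nr3c1 with Onecut1 (vehicle replicate 3 or 0.07 mg/kg replicate 2), and Bhlhe40 and Il6r with Bcl6 (5 and 8 different arrays). The next in rank with Cish in the last pair of lists, Tsc22d3 (r = -0.54) and Lcn2 (-0.31), were not called.

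The listed genes were also fitted on the 27 arrays above the Cish gap. This split is made on Cish itself and leaves Cish a range of 6.73 to 8.28 and Onecut1 a range of 6.41 to 10.55. A narrower range alone can cost calls with Cish, so the counts for the 3 members cannot be compared. Its part in the lost calls was not tested. Of 14 listed genes called with Cish over 36 arrays, 0 were called over these arrays, where 1 probe set was called in all. All 14 slopes on Cish kept their sign there, at very different sizes. Those of Foxa2 (0.52, limma adjusted p = 0.248), Jun (1.03, adjusted p = 0.0836), Dusp1 (1.23, adjusted p = 0.263) and Gadd45g (1.19, adjusted p = 0.283) had the smallest adjusted p. Those of Myc (0.05, against 0.45 over 36 arrays), Nfil3 (0.08, against 0.21) and Socs3 (0.09, against 0.19) were well below their values over 36 arrays, each with an adjusted p of 1.00 in limma. Of 16 listed genes called with Onecut1, 11 were also called over those 27 arrays, Cebpb and Onecut2 among them, and 5 were not: Foxa2, Prox1, Jun, Atf3 and Dusp1. Of 10 called with Bcl6, 6 were also called there.

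Markers of other cells and RNA quality were set beside these swings. No gene of the 8 marker lists was called with Cish, Bcl6 or Onecut1, beside 0.773%, 1.27% and 2.73% of all probe sets. The mean of each list had r from -0.38 (8 of 8 hepatocyte markers) to 0.16 (endothelial) with Cish, from -0.31 (stellate) to 0.24 (pancreas) with Bcl6 and from -0.26 (pancreas) to 0.17 (hepatocyte) with Onecut1. The difference between the 3′ and 5′ GAPDH control probe sets, a measure of RNA integrity, had r = 0.09 with Cish, -0.24 with Bcl6 and 0.22 with Onecut1. Without the 2 arrays where that difference was high, 0.07 mg/kg replicate 4 and 70.6 mg/kg replicate 5, these were -0.00059, 0.04 and 0.02. The part of cell makeup in the swings was not tested.

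No member passed the test for a difference between any dose and vehicle. In limma fits to all 36 arrays adjusted by Benjamini-Hochberg over 31042 probe sets, 0 probe sets passed at any dose (0%). At an unadjusted p under 0.05 there were 953 (3.07%) at 0.07 mg/kg, 1235 (3.98%) at 0.71 mg/kg, 1079 (3.48%) at 7.06 mg/kg, 1626 (5.24%) at 70.6 mg/kg and 1080 (3.48%) at 706 mg/kg. All 5 doses are compared with the same 6 vehicle arrays, so a high or low vehicle group enters each of them.

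Cish was highest at 70.6 mg/kg, with a mean of 8.10 ± 0.17 (SD, n = 6) against 6.52 ± 1.13 in vehicle (n = 6). The difference was 1.58 (95% interval 0.55 to 2.60), with an adjusted p of 0.921 in limma. All 6 arrays at 70.6 mg/kg lay above all 6 vehicle arrays, by less than 0.01 at the closest, and 0.168% of all probe sets had values that did not overlap at that dose (0.148% at 0.07, 0.155% at 0.71, 0.216% at 7.06 and 0.142% at 706 mg/kg). At the other doses Cish differed from vehicle by 0.69, 0.72, 0.66 and 0.55 from 0.07 to 706 mg/kg, and each of these intervals includes 0. Leaving out single arrays moved the value at 70.6 mg/kg between 1.33 and 1.85, and those at the other doses between 0.30 and 1.05. The high value at this dose was known when the members were chosen and supports nothing further.

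Bcl6 was lower than vehicle at every dose in the group means. The differences were -0.57, -0.35, -1.06, -0.89 and -1.53 from the lowest to the highest dose, and the interval at 706 mg/kg was -2.80 to -0.25, with an adjusted p of 1.00 in limma. Of the 6 arrays at 706 mg/kg, 3 lay below all vehicle arrays. Bcl6 also had its narrowest spread there, 6.53 ± 0.52 (SD, n = 6) against 8.06 ± 1.11 in vehicle. Leaving out single arrays gave -1.82 to -1.22 at 706 mg/kg, -1.32 to -0.59 at 70.6 mg/kg and -1.65 to -0.76 at 7.06 mg/kg. At the lowest doses single arrays moved the difference close to 0: it was -0.00091 at 0.71 mg/kg without replicate 1 of that group and -0.05 without vehicle replicate 1, and -0.14 at 0.07 mg/kg without replicate 4 of that group.

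Onecut1 was higher than vehicle in every dose mean, by 0.57, 0.39, 0.87, 0.97 and 0.81 from the lowest to the highest dose, and Socs2 by 0.06, 0.14, 0.36, 0.45 and 0.47. Every one of these intervals includes 0: at 706 mg/kg they ran from -0.60 to 2.22 for Onecut1 and from -0.50 to 1.45 for Socs2. The sign of Socs2 at the lowest doses rested on single arrays. Its difference was -0.27 at 0.07 mg/kg without replicate 2 of that group, -0.23 without vehicle replicate 1, -0.12 without replicate 4 and -0.02 without vehicle replicate 4. At 0.71 mg/kg it was -0.16 without vehicle replicate 1, and from -0.02 to -0.01 without replicate 1, 2 or 3 of that group. Onecut1 kept its sign, but its difference at 0.71 mg/kg was 0.09 without vehicle replicate 1 and 0.84 without vehicle replicate 3, and at 0.07 mg/kg it was 0.16 without replicate 2 of that group and 1.03 without vehicle replicate 3.

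**Figure D4:**
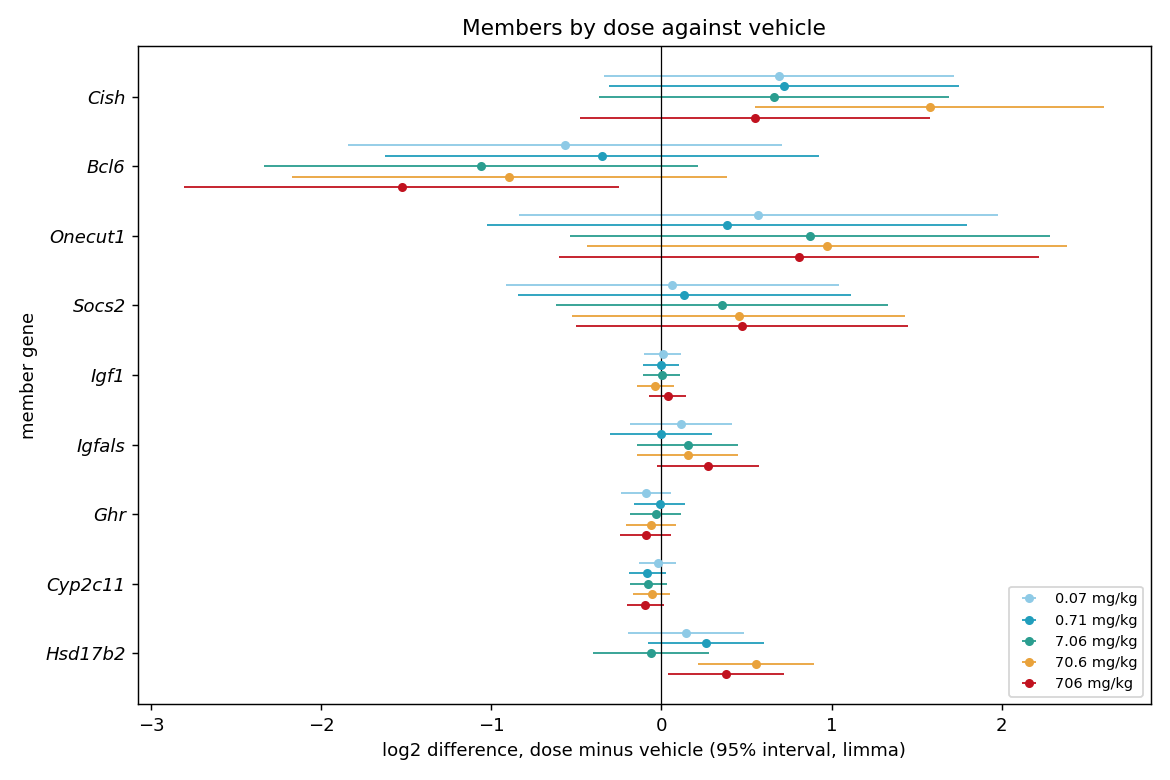
Log2 difference of each member from vehicle at each TBPH dose, with 95% intervals from limma, 6 arrays per group. The intervals of Cish at 70.6 mg/kg, of Bcl6 at 706 mg/kg and of Hsd17b2 at 70.6 and 706 mg/kg do not cross 0 before adjustment, and none passed after it.

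Hsd17b2, which converts oestradiol and testosterone to less active steroids, was the other member with an interval away from 0. In vehicle it ran from 9.48 to 9.93 with a median of 9.79, at 70.6 mg/kg from 9.77 to 11.06 with a median of 10.32, and at 706 mg/kg from 9.88 to 10.65 with a median of 10.05. At 70.6 mg/kg 5 of 6 arrays and at 706 mg/kg 4 of 6 lay above all vehicle arrays. The differences were 0.56 (0.22 to 0.90) and 0.38 (0.04 to 0.72), with adjusted p of 0.921 and 1.00 in limma. At 0.07, 0.71 and 7.06 mg/kg they were 0.14, 0.26 and -0.06. The highest array, at 11.06, is also the array with the highest GAPDH control difference, 0.41, and without it the difference at 70.6 mg/kg was 0.41. Hsd17b2 had r = 0.47 with that control difference, and 0.24 without the 2 arrays where it was high. Its r was 0.39 with the mean of 6 pancreas markers (0.35 without those arrays) and 0.31 with that of 6 erythroid and neutrophil markers (-0.06 without them). It was -0.45 (-0.47 without them) with the mean of 8 stellate cell markers, all measured, which ran from 6.80 to 8.08 in vehicle, from 7.20 to 7.76 at 70.6 mg/kg and from 7.53 to 7.78 at 706 mg/kg. Their part in the Hsd17b2 values was not tested.

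Igf1, Igfals, Ghr and Cyp2c11 stayed close to vehicle. Igf1 means lay between 13.31 and 13.38 in the 6 groups, and its differences from vehicle were -0.04 to 0.04, with all limits within -0.14 and 0.15. Cyp2c11 means were 13.45 to 13.55, and its difference at 706 mg/kg was -0.10 (-0.20 to 0.01). Ghr means were 11.83 to 11.92, with a difference at 706 mg/kg of -0.09 (-0.24 to 0.06). Igfals ran from 9.62 to 10.62 in vehicle and from 10.40 to 10.70 at 706 mg/kg, with a difference of 0.27 (-0.02 to 0.57). For none of these 4 genes did any dose group separate from vehicle.

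**Figure D5:**
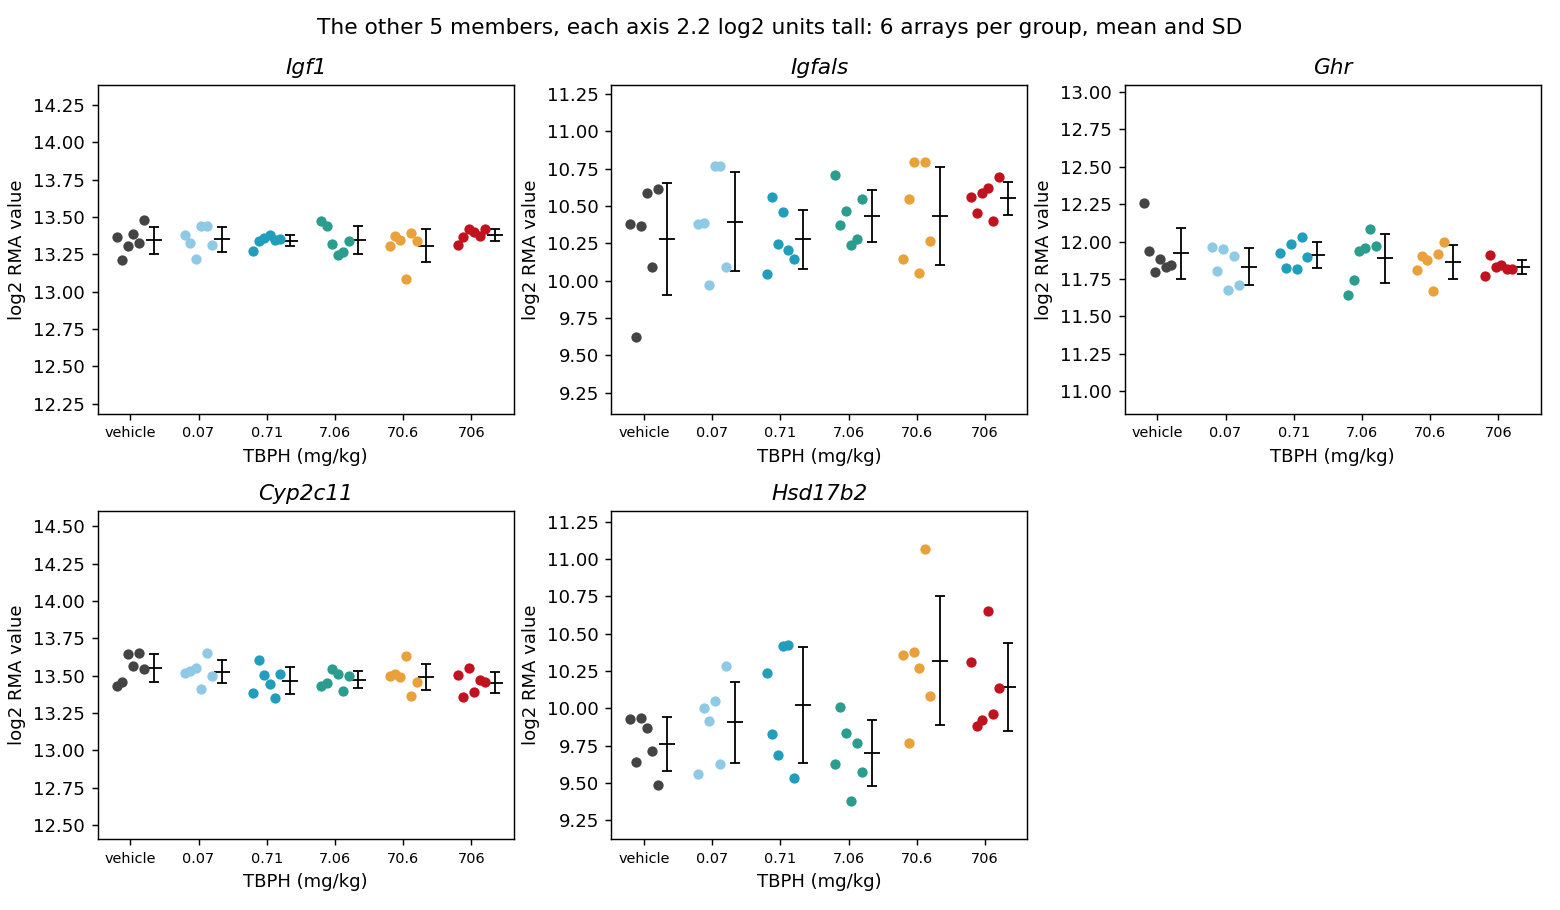
Log2 RMA values of Igf1, Igfals, Ghr, Cyp2c11 and Hsd17b2 by TBPH dose, with every vertical axis 2.2 log2 units tall; points are single arrays, 6 per group, beside the mean and SD. Igf1, Ghr and Cyp2c11 stay within 0.62 log2 over all arrays, and Hsd17b2 reaches 11.06 in 1 array at 70.6 mg/kg.

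No member differed among the 6 groups in limma's F test after adjustment (adjusted p = 1.00 for each member), in which 0 probe sets passed (0%). Before adjustment Hsd17b2 had the smallest limma F test p of the members, 0.00622, and 2.54% of all probe sets had such a p under 0.05.

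At 706 mg/kg no gene of the 10 pathway and response lists passed. The 2 with the smallest p were Socs1 (-0.12) and Stat5b (0.17) for growth hormone signalling, Igf2r (0.15) and Igfbp5 (0.07) for the IGF axis, Cyp2c13 (0.04) and Sult1e1 (0.06) for male-biased genes, and Prlr (0.45) and Cyp2a1 (0.14) for female-biased genes, as log2 differences from vehicle. They were Onecut2 (0.18) and Cebpb (0.28) for transcription factors, Klf6 (0.33) and Jun (0.46) for early response, Pck1 (-0.24) and Lpin1 (0.14) for fasting, and Bhlhe41 (-0.22) and Per2 (-0.09) for the clock. Mt2A (0.66) and Tsc22d3 (-0.08) led the glucocorticoid list, and Apcs (-0.09) and Crp (-0.06) the acute phase list. At 70.6 mg/kg the median difference of the early response list was 0.34, beside -0.0021 over all probe sets. Of its 20 genes, 15 were higher than vehicle in their means and 0 passed. The list's medians at 0.07, 0.71, 7.06 and 706 mg/kg were 0.10, 0.17, 0.02 and 0.09. The 70.6 mg/kg dose is singled out because Cish was highest there, and 7 of the 20 genes were called as rising with Cish. A raised median at that dose is therefore no separate support. In vehicle, 3 of 6 arrays had Cish below its gap, and at 70.6 mg/kg none did. Whether this bears on the list was not tested.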

How the data were processed

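Liver RNA of 36 samples was hybridised to Affymetrix 3′ expression arrays. The authors deposited log2 values, summarised by RMA with the affy package per the submitters' processing notes; versions and a genome build are not given in the sources used here. RMA sets all arrays to 1 distribution (array medians 5.06 to 5.15), which hides a change shared by most genes. Arrays give no counts, and their number limits the precision.

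Of 31099 probe sets, 57 controls were left out and 31042 tested; 20826 had 1 gene symbol, 436 several and 9780 none, and 20758 matched RefSeq by Entrez ID. Members, gene lists and comparisons were chosen with earlier results of these data known. Named genes are the 9 members, the 5 genes with the highest and the 5 with the lowest r with Cish, Bcl6 and Onecut1, and in each list the 2 with the smallest p for Cish and at 706 mg/kg, plus Jak2, Stat5a, Stat5b, Socs3, Igfbp1 and Igfbp3; other called list members were named after their values were seen.

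Dose effects were fitted with limma 3.58.1 in R 4.3.3, with 1 mean per group over 36 arrays (30 residual degrees of freedom), two-sided, with Benjamini-Hochberg adjustment over all probe sets at 0.05. The series' design names maanova, which was not installed. Associations added 1 member's log2 value as a covariate. Correlations are Pearson r of deviations from group means, except over the arrays below the gap in Cish, where group means were kept. The code was tested on simulated data. Since the labels do not say that samples are separate animals, p-values cover only the spread among these samples, which may be technical. Alternatives covered arrays in the fit, a replicate block, variance moderation, array weights, dim probe sets, renormalization, the other probe set, the GAPDH control difference and leaving out each array; fits above or below the gap in Cish were added after seeing the data. Figures used matplotlib 3.10.9 in Python 3.11.15.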

Additional observations from a re-analysis of the deposited data

Results flagged for a closer look

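Of 54 combinations of member and group, 5 had 1 array far from the other 5 by Dixon's test. That test's limit flags about 1 group in 20 by chance. Cish, Bcl6 and Onecut1 were chosen with their swings already seen, and members share arrays. The 5 flags are therefore a description and cannot be set against that rate. Bcl6 was at 5.38 in replicate 4 at 0.07 mg/kg (nearest array 7.43), an array of high GAPDH control difference. Bcl6 was at 9.92 in replicate 2 at 7.06 mg/kg (nearest 7.00) and at 9.31 in replicate 4 at 70.6 mg/kg (nearest 6.97); on both arrays Onecut1 was low for its group, at 6.32 and 7.08. Igf1 was at 13.09 in that replicate 4 at 70.6 mg/kg (nearest 13.31). Ghr was at 12.26 in vehicle replicate 1 (nearest 11.93), the array with the lowest Socs2 of the study, 6.55.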

How the results depend on the processing

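Over 925 alternative values for the 45 pairs of member and dose, 0 passed, the smallest adjusted p in limma was 0.744, and 13 pairs changed sign under some alternative. The number of probe sets called with Cish was 240, and it was 463 with no group term, 151 without the 2 arrays farthest from the median and 1 over the 27 arrays above the gap in Cish; leaving out 1 array gave 164 to 287. With Bcl6 the count was 394, and it was 227 without the 2 arrays of high GAPDH control difference, 252 over the arrays above the gap in Cish, and 193 to 460 without 1 array, lowest without replicate 4 at 0.07 mg/kg. With Onecut1 it was 846, and it was 1109 with no group term, 620 over the arrays above the gap in Cish and 666 to 943 without 1 array. The split at the gap narrows the range of Cish itself, so these 3 counts above it cannot be compared. Over the 9 arrays below the gap in Cish, with group means kept, the r of Cish was -0.015 with Hhex, 0.25 with Id4 and 0.0030 with Tbx3. These values cannot be compared with the within-group values over all arrays, and the cause was not tested. Same-numbered replicates did not deviate together (median r -0.02 over 90 pairs, 4 of 36 arrays best correlated with their own number). The values thus showed no pairing by number, and the labels do not say whether same-numbered samples were handled together. With the replicate block the counts were 188 for Cish, 371 for Bcl6 and 716 for Onecut1, and no dose call changed. The slope of Socs2 on Onecut1 and on Bcl6 passed in every alternative run, and on Cish only with ranks of the covariate.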
